A study of Mus musculus with 4 samples.

Results

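The interleukin 1 family and its receptors were examined in whole lung of mice with sickle cell disease (SCD), as a set of 10 listed genes. Of these, 9 had a probe set annotated to that gene alone, out of 30702 genes measured. Il1rl1, which encodes the IL-33 receptor ST2, is not analysed here because the annotation used names no probe set for it alone. The members were the agonists Il1a, Il1b, Il33 and Il18, the antagonist Il1rn, the decoy receptor Il1r2 and the receptor genes Il1r1, Il1rap, Il18r1 and Il1rl1. Where a gene has several probe sets the brightest one on average stands for it, but each of the 9 had only 1. RNA from 2 wild-type (WT) lungs, strain C57/BL6, and 2 SCD lungs, strain SCD Tg, was hybridised to Affymetrix arrays. All mice were adult and matched for age. The labels give neither the SCD line nor its genetic background, so that the transgene and a difference in background cannot be told apart. The design text speaks of 2 lungs per group without naming animals, and p-values measure the spread between these samples, which may be technical. Across the 30702 genes, which are not independent replicates, the arrays correlated at r = 0.992 within WT, 0.995 within SCD and 0.986 to 0.988 between the groups.

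IL-1α and IL-1β signal through the receptor chain IL-1R1, which recruits the shared accessory protein IL-1RAP and the adaptor MyD88. The antagonist encoded by Il1rn occupies IL-1R1 without signalling, and the receptor encoded by Il1r2 binds IL-1 but lacks the signalling domain. IL-33 acts through ST2 with IL-1RAP, and IL-18 through the chains encoded by Il18r1 and Il18rap. IL-1β and IL-18 are made as inactive precursors that caspase-1 cleaves, whereas IL-33 is stored in the nucleus, in mouse lung mainly of alveolar type 2 cells, and released on damage. The arrays measured messenger RNA and neither cleavage nor release.

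The promoters of the agonist genes are shown because Il1a, Il1b and Il33 rose and Il18 did not pass. Sequences are those of RefSeq (GRCm38.p6), from 250 bases before to 50 bases after an annotated start, written 5′ to 3′ on the gene's strand. Capitals mark TATAAA or its reverse complement. They come from chr2:129309923-129310222 (minus strand, Il1a), chr2:129371090-129371389 (minus strand, Il1b), chr19:29945540-29945839 (plus strand, the downstream of 2 starts of Il33) and chr9:50554450-50554749 (plus strand, Il18).
Il1a: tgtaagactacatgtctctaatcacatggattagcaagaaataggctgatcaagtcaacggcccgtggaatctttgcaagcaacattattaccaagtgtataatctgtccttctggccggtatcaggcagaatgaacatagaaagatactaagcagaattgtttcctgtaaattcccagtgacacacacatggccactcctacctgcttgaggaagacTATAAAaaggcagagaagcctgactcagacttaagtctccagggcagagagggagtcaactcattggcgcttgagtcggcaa
Il1b: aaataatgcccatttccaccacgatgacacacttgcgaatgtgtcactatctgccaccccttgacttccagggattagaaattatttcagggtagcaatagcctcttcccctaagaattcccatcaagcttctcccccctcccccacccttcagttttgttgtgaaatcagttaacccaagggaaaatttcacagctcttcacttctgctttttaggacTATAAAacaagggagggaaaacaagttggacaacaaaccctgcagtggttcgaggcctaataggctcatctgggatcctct
Il33: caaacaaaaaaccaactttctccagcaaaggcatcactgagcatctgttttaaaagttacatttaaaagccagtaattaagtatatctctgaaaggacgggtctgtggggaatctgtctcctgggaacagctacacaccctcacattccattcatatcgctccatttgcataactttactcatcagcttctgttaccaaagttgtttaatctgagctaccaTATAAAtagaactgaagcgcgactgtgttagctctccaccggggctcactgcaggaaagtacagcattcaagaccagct
Il18: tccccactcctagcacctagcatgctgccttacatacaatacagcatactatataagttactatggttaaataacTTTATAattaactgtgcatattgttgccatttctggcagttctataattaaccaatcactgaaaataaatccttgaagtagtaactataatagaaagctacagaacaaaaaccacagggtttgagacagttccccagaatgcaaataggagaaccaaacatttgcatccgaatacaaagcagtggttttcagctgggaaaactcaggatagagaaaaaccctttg
On the gene's own strand, TATAAA began 32 bases before the start in Il1a, 31 bases before it in Il1b and 29 bases before it in Il33. In Il18 the match lay on the opposite strand, 175 bases before the start, and in the upstream start of Il33 it lay 203 bases before. That upstream promoter is not printed, and which start of Il33 was used in these lungs was not tested. A match on the gene's strand that began 25 to 35 bases before the start was present in 1.75% of all 32851 promoters of the table, and among the 17 promoters of the 10 listed genes in these 3. That window was chosen after the matches were seen. On either strand, TATAAA was present in 6 of the 17 member promoters and in 13.6% of all promoters. TTGCNNAA, a C/EBP motif, was found in 3 of the 17 (10.8% of all), TGANTCA, an AP-1 motif that reads the same on both strands, in 2 (7.81% of all) and the NF-kB consensus in 1 (4.51% of all). No match of one motif overlapped a match of another, and a match is a description of the sequence only.

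SCD was compared with WT to find which members differ in mRNA level. Each difference is the SCD mean less the WT mean, in log2 units, ± the standard error (SE) given by limma, with adjusted p from limma after Benjamini-Hochberg adjustment over all 30702 genes and a threshold of 0.05. Of the 9 measured members, 3 rose, 0 fell and 6 did not pass. Over all genes, 3.10% passed in either direction, 2.47% as higher and 0.635% as lower in SCD. The 3 that rose were all among the 4 agonists, whose median difference was 1.84, beside 0.002 over all genes. In 5 members both SCD arrays lay above both WT arrays, beside 25.3% of all genes, in 3 both lay below, beside 22.5% of all genes, and the groups of Il1rn overlapped. Neither of the 2 antagonist and decoy genes passed (median 0.52), nor did any of the 3 measured receptor genes (median -0.35).

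Il1b, a cytokine gene of activated myeloid cells, had values of 6.62 and 6.11 on the WT arrays and of 8.97 and 9.07 on the SCD arrays. Both SCD arrays lay more than 2 log2 units above both WT arrays. Il1b rose by 2.65 ± 0.19 (6.30-fold, adjusted p = 0.0078 by limma), the rank of 27 from the top among the differences of all genes. Its WT mean lay 0.11 below the median of the intron control probe sets on the WT arrays. Its SCD mean lay 2.73 above that of the SCD arrays. This median was 6.47 to 6.48 in WT and 6.27 to 6.31 in SCD, and each group is set against its own throughout.

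Il33, the gene of a nuclear alarmin, had values of 9.06 and 9.17 in WT and of 11.45 and 11.56 in SCD. The arrays of each group lay close together and the groups did not overlap. Il33 rose by 2.39 ± 0.10 (5.24-fold, limma adjusted p = 0.00288), with the smallest p of the members and rank 19 by p among all genes. Il1a, whose precursor is already active and is released from dying cells, had values of 7.20 and 6.84 in WT and of 8.28 and 8.35 in SCD. The SCD arrays were again both higher than the WT arrays. It rose by 1.30 ± 0.15 (2.46-fold, limma adjusted p = 0.0199), less than Il1b, its neighbour on the chromosome.

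Il18, whose product induces interferon gamma in T and NK cells, had values of 7.09 and 7.12 in WT and of 7.08 and 7.04 in SCD. All 4 arrays lay within 0.1 of each other. The difference of -0.04 ± 0.10 did not pass (95% interval -0.30 to 0.21, limma adjusted p = 0.881).

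The calls rest on both SCD arrays. Without either of them limma called 0 of all genes, with 3306 genes (without SCD replicate 1) and 3270 (without SCD replicate 2) at an unadjusted p under 0.05. In these fits the differences of Il1a, Il1b and Il33 were 1.26 to 2.70 and their limma adjusted p 0.0692 to 0.179.

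**Figure D1:**
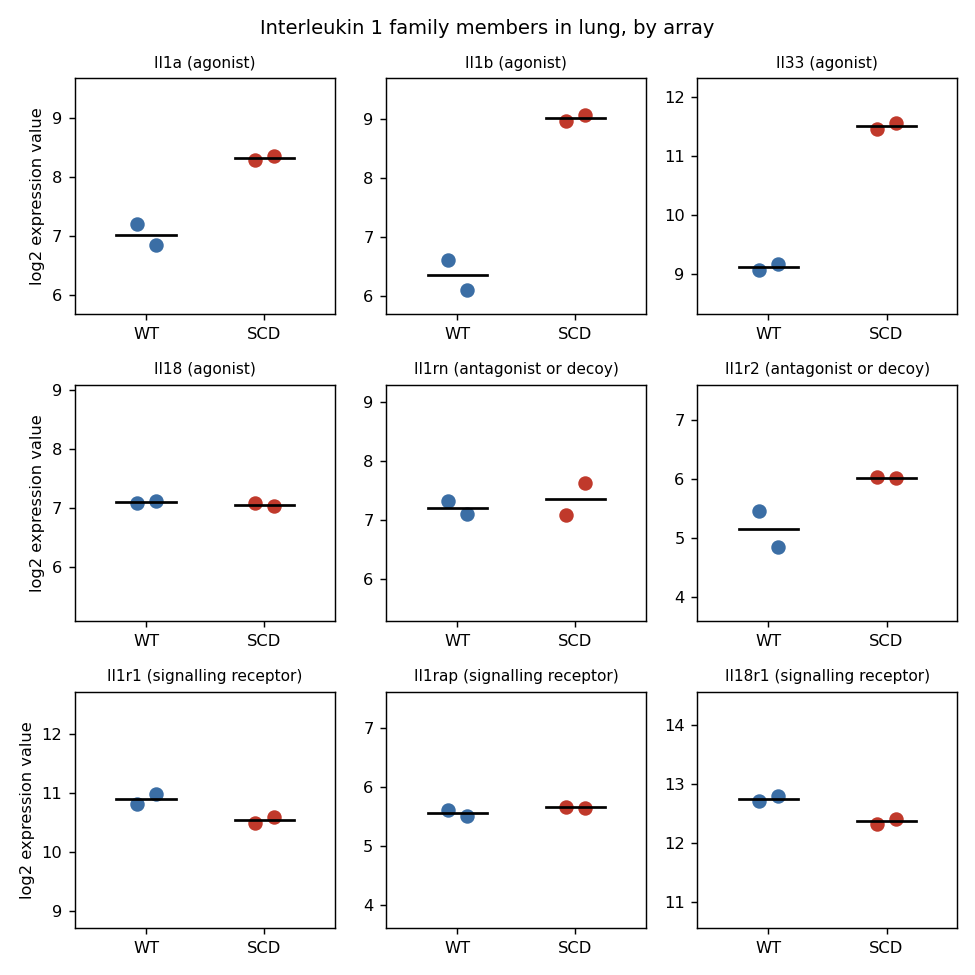
Log2 expression value (vertical axis, each panel spanning 4 log2 units) of the 9 measured members on the 2 WT (blue) and 2 SCD (red) arrays, with group means as black lines. Il1b, Il33 and Il1a are higher on both SCD arrays, Il18 is nearly level, and Il1r1 and Il18r1 are slightly lower; levels are not to be compared between panels.

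Among the genes that restrain IL-1, Il1rn, the receptor antagonist, had values of 7.32 and 7.11 in WT and of 7.09 and 7.64 in SCD. The groups overlapped and the SCD arrays differed by more than the group means. Its difference of 0.16 ± 0.21 did not pass (95% interval -0.38 to 0.69) and turned to -0.04 once the rise of the exon control probe sets between the groups was subtracted. Il1r2, the decoy receptor, had values of 5.46 and 4.86 in WT and of 6.04 and 6.02 in SCD. Its groups did not overlap, as for 47.7% of all genes, but the difference of 0.88 ± 0.22 did not pass (limma adjusted p = 0.131). Its probe set was dim, with a WT mean 1.32 below the intron control median.

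To set agonists against inhibitors, the log2 value of the inhibitor was subtracted from that of the agonist on each array, and only the change of this difference between groups was read. For Il1b against Il1rn it was -0.69 and -1.0 in WT and 1.88 and 1.43 in SCD, a change of 2.50. Against Il1r2, Il1b changed by 1.78, with WT values of 1.17 and 1.25 and SCD values of 2.93 and 3.04. Il1r2 lay below the intron control median in both groups (by 1.32 in WT and 0.26 in SCD), so that the size of any change against it rests on a dim signal. In both Il1b pairs the SCD arrays lay above the WT arrays by several times the spread within groups.

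Il1a changed by 1.14 against Il1rn, from -0.11 and -0.27 in WT to 1.19 and 0.71 in SCD. Against Il1r2 its change was smaller, 0.42, from 1.74 and 1.98 to 2.24 and 2.33. Il18 against Il18bp, the gene of the soluble IL-18 binding protein, went the other way, from -0.04 and 0.06 to -0.19 and -0.28, a change of -0.25. The pairs with Il1a and Il1b share genes and are not separate observations. In none of the 5 pairs did the groups overlap, and they did not overlap in 47.7% of all single genes either. The two-sided exact permutation p was 0.333 for each, raw and adjusted over the 5 pairs, which is the smallest that 2 arrays against 2 allow, so that this permutation test cannot pass for any pair. No model was fitted to the pairs.

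**Figure D2:**
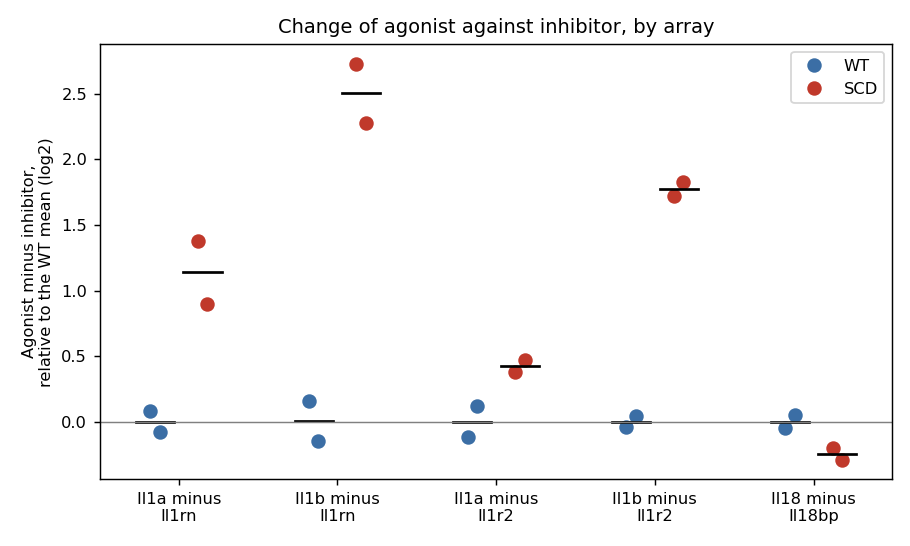
Log2 value of the agonist minus that of the inhibitor on each array, relative to the WT mean of the pair (vertical axis), for 5 pairs (horizontal axis); WT blue, SCD red, black lines are group means (n = 2). Il1b gains on both inhibitors (2.50 and 1.78), Il1a gains less (1.14 and 0.42) and Il18 lies 0.25 lower against Il18bp.

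None of the 3 measured receptor members passed. Il1r1, the signalling receptor for IL-1, had values of 10.80 and 10.97 in WT and of 10.48 and 10.58 in SCD. Both SCD arrays were lower than both WT arrays, but the difference of -0.35 ± 0.10 did not pass (limma adjusted p = 0.175). Il18r1, the ligand-binding chain for IL-18, was also lower on both SCD arrays, at 12.32 and 12.41 against 12.71 and 12.79. Its difference of -0.39 ± 0.08 did not pass either (limma adjusted p = 0.0839). It passed after repeated quantile normalization (-0.50, adjusted p = 0.0333) and with the exon control shift taken off (-0.58, adjusted p = 0.0311). Il1rap, the shared accessory chain, had values of 5.62 and 5.52 in WT and of 5.67 and 5.65 in SCD. Its difference of 0.09 ± 0.11 did not pass, and its probe set lay below the intron control median in both groups.

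Other genes of the family, taken from lists that extend the members, were mostly level. Il18rap, the accessory chain of the IL-18 receptor, had values of 6.53 and 6.78 in WT and of 7.49 and 7.67 in SCD. It rose by 0.93 ± 0.14 (1.90-fold, limma adjusted p = 0.0412), the opposite direction to Il18r1, its neighbour. That call was lost with the exon control shift taken off (adjusted p = 0.0654), without the intensity trend (adjusted p = 0.0575) and without any 1 of the 4 arrays (adjusted p 0.0601 to 0.273). Il1f9, which encodes the epithelial agonist IL-36γ, had values of 6.42 and 5.65 in WT and of 7.52 and 7.47 in SCD. Its difference of 1.46 ± 0.26 missed the threshold (limma adjusted p = 0.0634). It passed in limma with the dimmest 50% of genes left out (adjusted p = 0.0427), with equal array medians (0.046), after repeated quantile normalization (0.0496), with the replicate block (0.0353) and without WT replicate 1 (0.0303) or WT replicate 2 (0.0428).

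The inhibitors Il18bp (0.20 ± 0.10) and Sigirr, an inhibitory receptor of the family (0.03 ± 0.14), did not pass. In all, 3 of 7 agonist genes and 1 of 7 measured receptor genes rose, beside 2.47% of all genes. None of 6 antagonist and decoy genes passed, beside 3.10% of all genes in either direction. The medians were 1.30, -0.06 and 0.13 in that order. On all arrays, 2 agonist, 3 receptor and 3 antagonist or decoy genes lay below the intron control median.

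**Figure D3:**
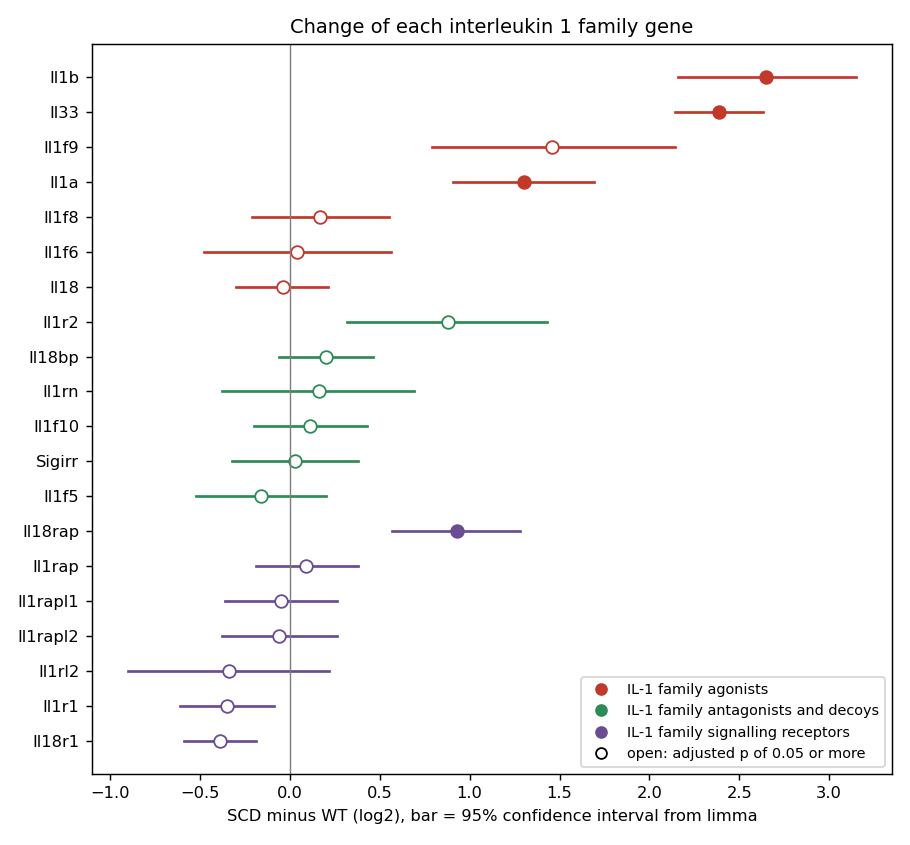
SCD minus WT on the log2 scale (horizontal axis) for 20 genes of the interleukin 1 family, with 95% confidence intervals from limma (n = 2 per group), coloured by role; filled points passed an adjusted p of 0.05. The filled points are Il1b, Il33 and Il1a among the agonists and Il18rap among the receptors.

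Most genes of the family lie in clusters. On chromosome 1, the receptor genes lie in the order Il1r2, Il1r1, Il1rl2, Il1rl1, Il18r1 and Il18rap in the RefSeq table. Of the 5 measured genes of this cluster, only Il18rap (0.93), at its end, passed in limma. Il1r2 (0.88), Il1r1 (-0.35), Il1rl2 (-0.34 ± 0.22) and Il18r1 (-0.39) did not. On chromosome 2, Il1a and Il1b rose while Ckap2l (-0.08) and F830045P16Rik (-0.06), the flanking protein-coding genes, did not pass. Slc20a1, a phosphate transporter gene next to Ckap2l, rose by 0.80 ± 0.10 (limma adjusted p = 0.0253). In the other cluster of this chromosome, Il1f9 (1.46) stood between Il1f8 (0.17) and Il1f6 (0.04), and Il1rn closed the row. The genes on either side of Il33, Ranbp6 (-0.16) and Trpd52l3 (-0.05), did not pass.

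**Figure D4:**
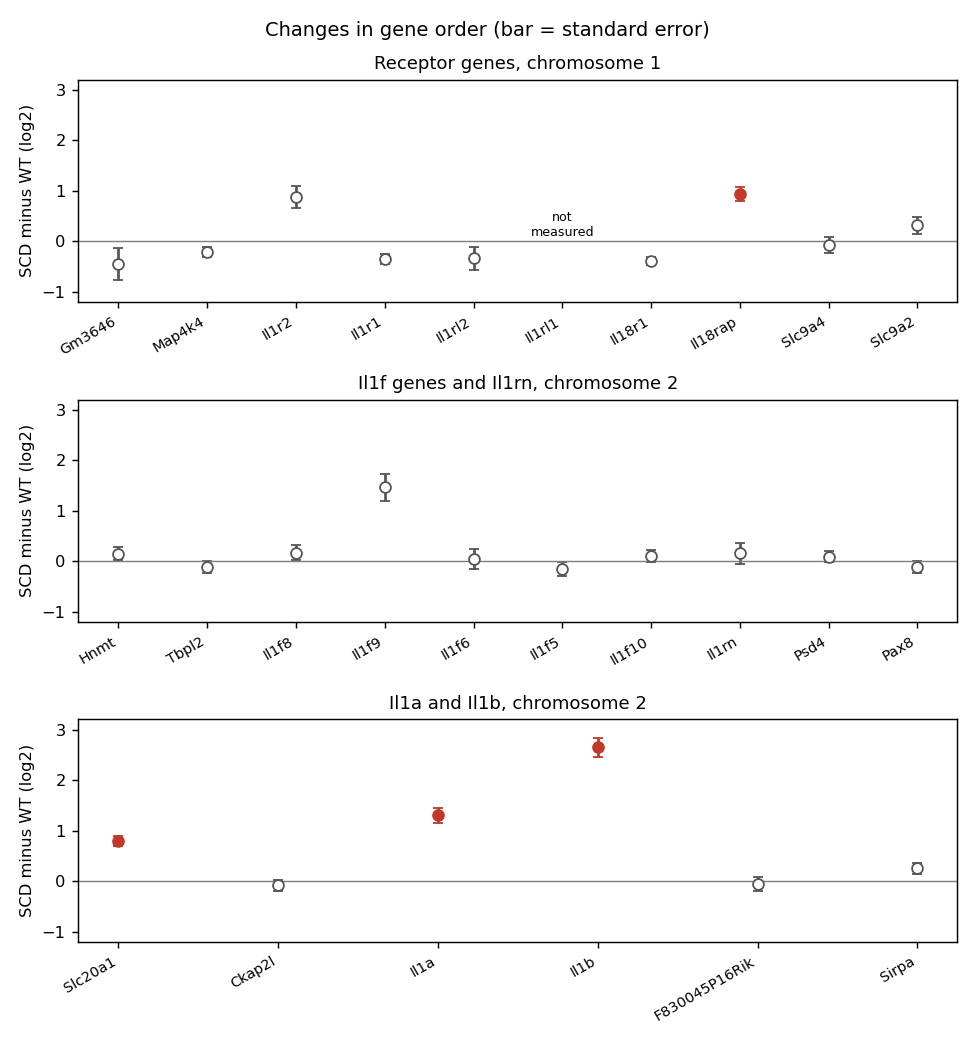
SCD minus WT on the log2 scale (vertical axis) ± SE for protein-coding genes in their order along the chromosome (horizontal axis, not to scale); red points passed an adjusted p of 0.05. Of the genes drawn, Il18rap, Slc20a1, Il1a and Il1b passed, and Il1rl1 was not measured.

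Genes that process the precursors changed in 1 of 12 cases, beside 3.10% of all genes. Casp4, an inflammatory caspase that senses lipopolysaccharide and cleaves gasdermin D, had values of 7.70 and 7.98 in WT and of 9.38 and 9.36 in SCD. It rose by 1.53 ± 0.13 (2.89-fold, limma adjusted p = 0.00823). Casp1, the protease of pro-IL-1β, had a difference of 0.85 ± 0.15 that missed the threshold (limma adjusted p = 0.0612), and it passed after equal array medians were set (adjusted p = 0.0482) and in 3 other settings. The inflammasome sensor Nlrp3 (0.59 ± 0.20) and Gsdmd, the pore former through which IL-1β leaves the cell (0.03 ± 0.12), did not pass. Nlrp3 lay below the intron control median in both groups. None of 6 genes of extracellular proteases that cleave these precursors passed (median 0.12), and 5 of the 6 lay below the intron control median on all arrays.

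Below the receptors, none of 13 measured signalling genes passed, at a median of 0.03. Myd88 stood at 0.26 ± 0.11, with a probe set below the intron control median in both groups. Irak3, the inhibitory kinase of the pathway, stood at 0.20 ± 0.10. Among 21 genes known to be induced by IL-1, 3 rose and 0 fell, at a median of 0.44, where 2.47% of all genes rose and their median was 0.002. Lcn2, an iron-sequestering defence protein, rose by 2.64 ± 0.09, from 8.01 and 8.04 to 10.66 and 10.67. The neutrophil chemokine gene Cxcl2 rose by 2.05 ± 0.22 and the ferrireductase gene Steap4 by 1.54 ± 0.12. Whether IL-1 induced Lcn2, Cxcl2 or Steap4 here was not tested, and 7 of 10 neutrophil markers rose in the same lungs. The call of Cxcl2 was lost without either WT array (limma adjusted p 0.0502 and 0.0576). Il6 (0.91 ± 0.24) and Cxcl1 (0.15 ± 0.12) did not pass, and both lay below the intron control median in both groups.

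Among 13 measured genes linked to IL-33 and type 2 cytokines, 3 rose (2.47% of all genes did) at a median of -0.01. They were Retnla, a secreted product of alternatively activated macrophages (2.12 ± 0.10), Clca1, a goblet cell gene (2.28 ± 0.19), and the chemokine gene Ccl17 (2.13 ± 0.18). The type 2 cytokine gene Il13 lay at 5.32 and 5.57 in WT and 5.12 and 5.36 in SCD and did not pass (-0.21 ± 0.15). Its probe set was below the intron control median in both groups. Of 5 genes linked to IL-18, 2 rose (2.47% of all genes did), at a list median of 1.15. They were Cxcl9 (3.73 ± 0.20) and Cxcl10 (1.18 ± 0.12), both also induced by interferons. Ifng (0.50 ± 0.19) did not pass. Relative to the intron control median, Cxcl10 lay at -1.5 in WT and -0.14 in SCD, and Ifng at -2.21 and -1.53. The call of Cxcl10 was lost without either WT array (limma adjusted p 0.0638 and 0.0559).

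**Figure D5:**
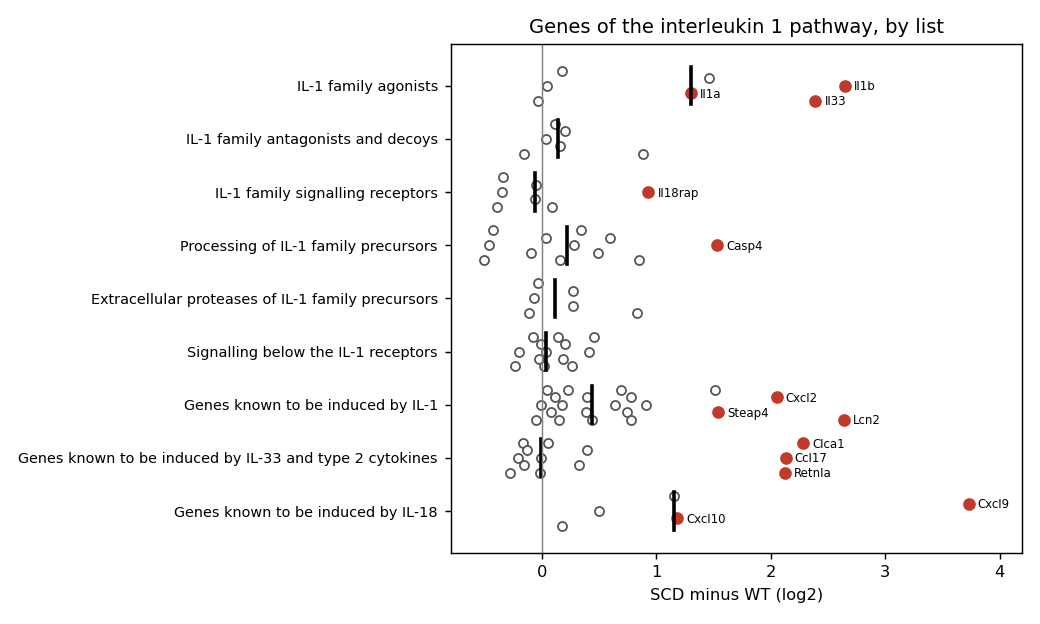
SCD minus WT on the log2 scale (horizontal axis) for each measured gene of 9 lists of the pathway (vertical axis); red points, named, passed an adjusted p of 0.05, open points did not, and black bars are list medians. Many genes lie near 0, and the named points, all to the right, include 3 agonists, Il18rap, Casp4 and genes of the induced lists. List medians run from -0.06 to 1.30.

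Some markers of the cells that make or receive these cytokines passed, but none of alveolar type 2 cells or type 2 innate lymphoid cells did. Over all genes, 2.47% passed as higher and 0.635% as lower in SCD. Of 10 neutrophil markers 7 rose and 0 fell, and their summed level (log2 of the sum of unlogged values) was 16.07 and 16.47 in WT and 18.75 and 18.91 in SCD. They were S100a8, S100a9, Csf3r, Cxcr2, Retnlg, Mmp8 and Ltf, with differences of 1.10 to 2.62, and the sum is carried largely by S100a8 and S100a9. Of 8 monocyte markers Ly6c2 (1.55) and Ccr2 (1.11) rose, with summed levels of 15.29 to 15.30 in WT and 16.77 to 16.80 in SCD. That sum is carried by Ly6c2 (15.19 on both WT arrays, 16.76 and 16.73 in SCD), and the other 6 markers, among them Plac8 (-0.10), Ms4a4c (-0.05) and Vcan (-0.18), did not pass (list median 0.29). The part of these cells in the rise of Il1b was not tested, and in whole lung more cells of a type and more RNA per cell cannot be told apart.

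None of 9 alveolar type 2 markers passed, and their sum ranged from 20.59 to 20.64 over all arrays. It is carried largely by Sftpc, which read 19.93 on every array and gives no direction. None of these 9 markers lay below the intron control median on all arrays. Of 7 measured alveolar macrophage markers Car4 rose (1.18) while Marco (-1.48) and Fabp4 (-1.22) fell, beside 2.47% of all genes higher and 0.635% lower. Cd3e (0.77) and Nkg7 (1.18) rose among 8 T and NK cell markers (list median 0.30). Tek (-1.94) and Cdh5 (-0.47) fell among 8 endothelial markers, and Col1a1 (-0.64) fell among 5 measured fibroblast markers. The other markers of these lists did not pass. Of the 8 endothelial markers 4 had a positive difference, among them Cldn5 (0.65), at a list median of -0.16. Of the 5 fibroblast markers 2 did, among them Tcf21 (0.66), at a list median of -0.35. Of 9 mast cell and basophil markers Kit fell (-2.18), while Cpa3 and 7 others did not pass. Kit read 10.31 and 10.36 in WT, where Ms4a2 and Fcer1a of the same list had means of 4.68 and 4.90. Which cells of the whole lung carried the Kit signal, or that of Car4, was not tested. None of 7 measured markers of type 2 innate lymphoid cells, which respond to IL-33, passed (median 0.20). On all arrays, 5 of these 9 and 4 of these 7 lay below the intron control median, so that for them a missed threshold says little.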

How the data were processed

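The authors deposited 1 table of log2 expression values for 72688 probe sets on 4 arrays; the tools named in the submitters' processing notes are RMA, Partek and Affymetrix Expression Console, without versions, roles or order. The log2 scale was read from the values (1.72 to 19.93). Platform annotation, updated through RefSeq symbols, gave 31258 probe sets with 1 gene, 1492 with several and 33206 with none, and 30702 genes, each taken from its brightest probe set; 6732 were controls. The number of arrays limits the precision. Group was the only term in limma 3.58.1 (R 4.3.3, lmFit, eBayes with intensity trend, two-sided, no filter). The code was also run on simulated data with known changes and normal noise of the spread that limma had fitted. Such a run checks the code and not the calibration of p-values with 2 arrays per group. Agonist and inhibitor pairs were compared with exact permutation tests; the planned pair of Il33 and Il1rl1 was not analysed here. Gene lists, and the rule for named genes (all members, list genes past the threshold and 12 fixed ones), were chosen with earlier results of these data known. Some genes under the rule are given only in counts. List counts stand beside those over all genes, with no set test. Alternatives covered the replicate block, scaling, filters, eBayes settings and each array left out. Exon control medians were 10.01 and 10.15 in WT and 10.26 and 10.29 in SCD, a shift of 0.196. Intron control medians were 6.47 to 6.48 and 6.27 to 6.31. The median of all probe sets was lower, 5.67 to 5.73. Antigenomic controls, another class of control probe sets, had a median of 3.36 and a 90th percentile of 5.19 over all arrays. A value below the intron control median thus marks a dim probe set and does not show that the transcript is absent.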

Additional observations from a re-analysis of the deposited data

How the results depend on the processing

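Il1a, Il1b and Il33 kept their direction in all 15 alternative settings and passed in 13 of them, all but those without either SCD array. With 1 array left out, genes called ranged from 0 to 786 of a main count of 952, those higher from 0 to 643, those lower from 0 to 143 and members called from 0 to 3; without WT replicate 1 the counts were 508, 418 and 90. A group left with 1 array is assumed to vary like the other. Taking off the exon control shift moved the median of all genes to -0.194, gave 525 higher and 573 lower genes beside 757 and 195, and lowered the agonist median from 1.84 to 1.65. Under it Il1rn (-0.04), Il1rap (-0.10), Cxcl1 (-0.05) and Sigirr (-0.17) changed sign, none of them called. With 1 array left out Il1rn ranged from -0.12 to 0.43 and Sigirr from -0.10 to 0.16 (-0.03 without SCD replicate 1), and Il18 changed sign after repeated quantile normalization (0.01). Genes called lower were 321 with the dimmest 50% of genes left out, 114 without the intensity trend. With the replicate number as a block 973 genes and 3 members were called. Same-numbered arrays showed no shared deviation (correlation -0.0022 across genes). With 2 arrays per group this cannot exclude that the numbers mark a pairing. The block moved Casp1 (limma adjusted p = 0.0499) and Il1f9 (limma adjusted p = 0.0353) past the threshold. Il1r2 and Il1rap were too dim for the 50% filter, which gave no value for them. The cause of these shifts was not tested.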

Other observations

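Genes with the pattern most like Il1b and Il33 over the 4 arrays were sought among 18270 other protein-coding genes, by the root mean square difference after each gene's WT mean was subtracted. Nearest to Il1b were the metallothionein gene Mt2 (0.0448 log2 units), Speer4d (0.0771) and Gp2 (0.121). Mt2 had values of 12.11 and 11.48 in WT and of 14.37 and 14.47 in SCD, with a difference of 2.62 ± 0.21. Nearest to Il33 were Apol11a (0.0939), Wfdc17 (0.0952) and the calgranulin gene S100a9 (0.102), with differences of 2.31, 2.25 and 2.51. With 4 arrays, such likeness rests mostly on the size of the group difference.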
